A study of Homo sapiens with 22 samples.

Results

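The cytosolic ribosomal protein genes encode the protein part of the ribosomes that translate messages in the cytoplasm. They were selected by symbol from the protein-coding genes of GENCODE version 44 on chromosomes 1 to 22 and X. A symbol had to begin with RPL or RPS and a number, or be RPLP0, RPLP1, RPLP2 or RPSA. The S6 kinase genes and symbols with an L after the number were left out. The selection gave 77 of 19970 genes, 46 for the large subunit and 31 for the small one. They lie on 21 chromosomes, with 12 genes on chromosome 19 and 4 on X. Another 5 symbols that begin the same way were left out: the read-through genes RPL17-C18orf32, RPL36A-HNRNPH2 and RPS10-NUDT3, the paralog RPL36AL, and RPS19BP1, which does not encode a ribosomal protein.

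Insertions of a transposon were mapped in K562, a line from a human erythroleukemia. Cells received a barcoded self-reporting transposon that confers puromycin resistance, together with a helper plasmid for the unfused piggyBac transposase hyPBase or for hyPBase-centrip, and were selected with puromycin for 11 days. There were 10 libraries per helper, and the sources used here do not say how the hyPBase-centrip protein differs. Another 2 libraries whose labels name both helpers were not assigned and were not used. All 20 libraries carry the same donor and came from 1 cell line, and no library without a helper was analysed here.

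The piggyBac transposase inserts at the tetranucleotide TTAA, and the unfused enzyme tends to insert at active promoters and enhancers. Positions are found from RNA, since transcription from a promoter inside a self-reporting transposon extends past its end and copies the genomic bases beside it. Ribosomal protein genes are among the most strongly transcribed genes of a growing cell. They are short, many hold small nucleolar RNAs (snoRNAs) in their introns, and most have processed pseudogenes, intronless copies of the spliced message that lie elsewhere in the genome.

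The 20 libraries held 52154230 insertions, from 1509672 to 3596762 per library, on 19214674 TTAA sites, which is a genome mean of 2.71 insertions per site. Densities below are insertions per TTAA site divided by that genome mean, or by the mean of the same library where single libraries are compared. Within a helper, libraries with consecutive numbers shared 1.01 to 1.16 times as many insertions of equal site, orientation and barcode as their sites and barcodes predict (18 pairs). The ratio was 0.974 to 1.13 in the other 72 pairs of a helper and 0.972 to 0.984 in the 100 pairs between helpers. The protocol isolated RNA from every 3 replicates together, so the libraries may not be separate cultures, and p-values measure the spread between libraries, which may be technical, and not the spread between sites. Most erythroid genes were dense, with a median body density of 6.15 over the 7 of 8 with enough sites. That median is the value of HBG2, whose annotated body holds 1639 TTAA sites, against 7 for HBG1, which had a density of 5.37. The median was 0.63 over 6 lymphoid genes and 1.82 over 3 myeloid genes. Erythroid values ran from 1.80 at TFRC, below the 2.92 of its surrounding 1 Mb, to 30.7 at KLF1. The myeloid gene ELANE stood at 4.58. GATA1, an erythroid master regulator, held 5 insertions on 3 body sites, but the density of its body and flanks together was 13.8.

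The sequences below are the 30 bases around the 8 TTAA sites with the most insertions in the annotated bodies of these genes, chosen to show what a densely hit site looks like. Each is written 5′ to 3′ on the strand of its gene, from the GRCh38 (hg38) reference, with the TTAA in capitals.
RPL27A, chr11:8701091-8701094, plus strand: tacctcatttcctTTAAagcagctcaaaaa
RPS26, chr12:56041392-56041395, plus strand: aattcttcaatctTTAAagtgaggataata
RPL5, chr1:92832677-92832680, plus strand: cccggaagctcctTTAAcatggaatacgtg
RPL27A, chr11:8701314-8701317, plus strand: ctacattcgcataTTAAaaggctaggatgg
RPL37, chr5:40834614-40834617, minus strand: actatttattcctTTAAtgtgcagacgaag
RPL5, chr1:92832272-92832275, plus strand: tcccagcgtggccTTAAatggctgccgccc
RPS24, chr10:78043659-78043662, plus strand: agctctgaggtagTTAAtgacgatcccatg
RPL27, chr17:42999050-42999053, plus strand: tccaccagaggctTTAAatatatagtaata

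The site in RPL27A at 8701091 held 576 insertions, with 14 to 36 and a median of 29.5 per library, and the site in RPS26 held 340, with 8 to 24 per library. Both lie inside the annotated gene but outside its canonical transcript, as do the other RPL27A site (228 insertions) and the RPS24 site (172). The sites in RPL5 (241 and 188 insertions), RPL37 (197) and RPL27 (165) are intronic. All 8 were hit in each of the 20 libraries, and the 36 bases on either side of each occur once in the genome. Their orientation differed from site to site. At the RPL27 site 159 of 165 insertions were oriented against the gene, and at the denser RPL5 site 230 of 241, whereas the denser RPL27A site held 292 insertions along the gene and 284 against it. RPL27A, RPL37 and RPL27 are large-subunit proteins, RPS26 and RPS24 belong to the small subunit, and RPL5 binds 5S ribosomal RNA and, with RPL11, the p53 regulator MDM2.

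The bodies of the 77 genes held 3558 TTAA sites, of which 2593 (72.9%) carried an insertion in at least 1 library. They collected 29022 insertions, with a median of 243 and a range of 14 to 2181 per gene, and 65 genes were hit in all 20 libraries. Pooled over the genes, the body density was 3.01, against 1.23 over all protein-coding genes. The 5 kb upstream of the start reached 4.78 against 3.33, and the 5 kb downstream of the end 3.60 against 1.97. Introns stood at 3.23 against 1.15 and untranslated exons at 4.31 against 2.15.

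Each of these values except that of untranslated exons, which was not compared by library, was higher for the ribosomal protein genes than for all genes in 20 of 20 libraries. Body density ran from 2.79 to 3.29 with a median of 2.97 over the libraries, and that of all genes from 1.21 to 1.23. Within the ribosomal protein genes the upstream flank was denser than the body and than the downstream flank in 20 of 20 libraries, and the downstream flank was denser than the body in 20 of 20. No test was run on these sums, since the genes were taken as a list. The ribosomal protein genes are also shorter, with a median canonical transcript span of 4450 bp against 22930 bp, so that more of each body lies near its start, and their surroundings were denser, at 1.79 over the 1 Mb around each gene against 1.55. The part of length and surroundings in the difference was not tested.

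**Figure D1:**
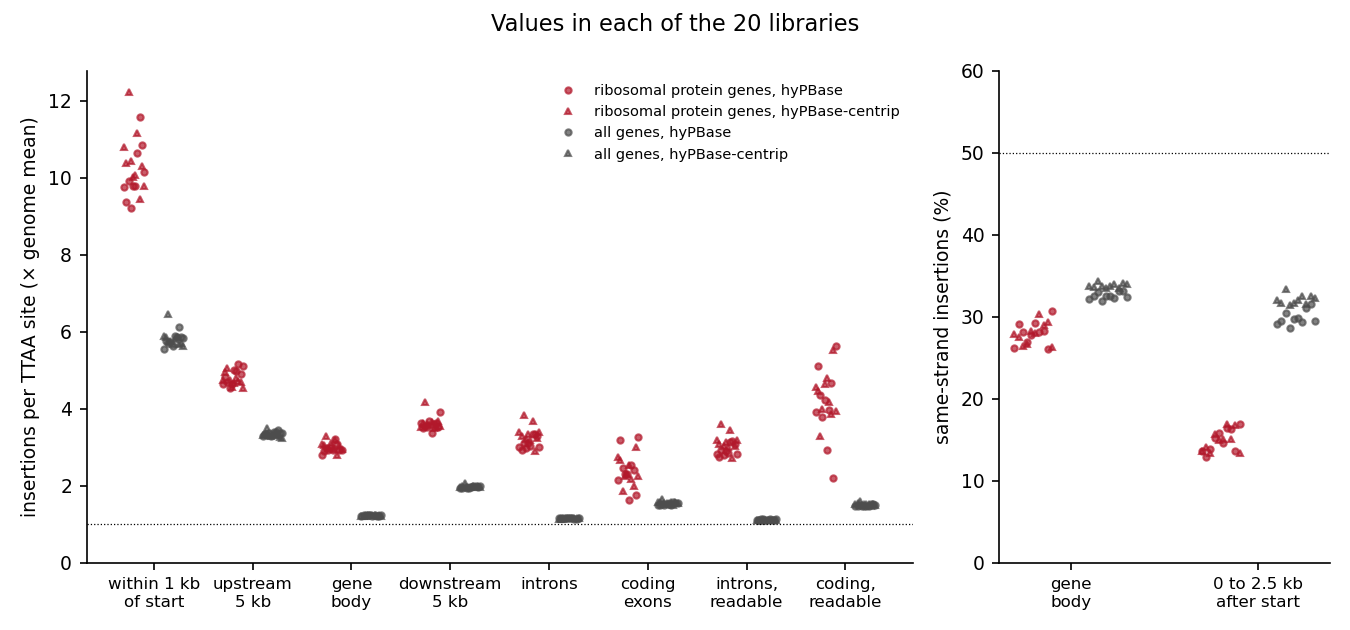
Insertion density relative to the genome mean (left) and share of insertions oriented along the gene (right) in each library, for the 77 ribosomal protein genes (red) and all protein-coding genes (grey); circles are hyPBase libraries, triangles hyPBase-centrip libraries, and "readable" counts only site sides whose 36 bases occur once. The start is that of the canonical transcript, and body and 5 kb flanks are those of the annotated gene. The body density of the ribosomal protein genes lay between 2.79 and 3.29 and that of all genes between 1.21 and 1.23.

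Density was highest around the start. Start and end in this paragraph are those of the canonical transcript, whereas body and 5 kb flanks follow the annotated gene. Where the annotated body is longer, bases outside the transcript can lie inside the body. Within 1 kb on either side of it the density was 9.22 to 12.2 in the 20 libraries (median 10.1), and over all genes 5.56 to 6.46. Relative to all genes the difference was not largest there: the ratio of the library medians was 1.75 within 1 kb of the start, 2.42 over the body, 1.43 in the upstream flank and 1.81 in the downstream one. Pooled in steps of 500 bp, it peaked at 12.5 between 1000 and 500 bp upstream, where the libraries ran from 11.2 to 14.1, and was still 8.73 between 500 and 1000 bp downstream. All genes together stood at 6.40 and 4.84 in those steps. Further into the gene the ribosomal protein genes were the sparser over some steps. From 2000 to 2500 bp the ribosomal protein genes had a density of 1.97 (1.36 to 2.43 in the libraries) against 2.92 (2.80 to 3.04) for all genes, and from 2500 to 3000 bp 1.62 (1.14 to 1.91) against 2.56 (2.47 to 2.67). In neither of these steps did the libraries of one set of genes overlap those of the other. From 3500 to 4000 bp both stood at 2.09, and from 4000 to 4500 bp the ribosomal protein genes were again the denser, at 2.57 against 2.11. Past the end of the canonical transcript, the density was 4.29 from 500 to 1000 bp and 4.71 from 2000 to 2500 bp. Over all genes it was 1.98 and 2.06.

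**Figure D2:**
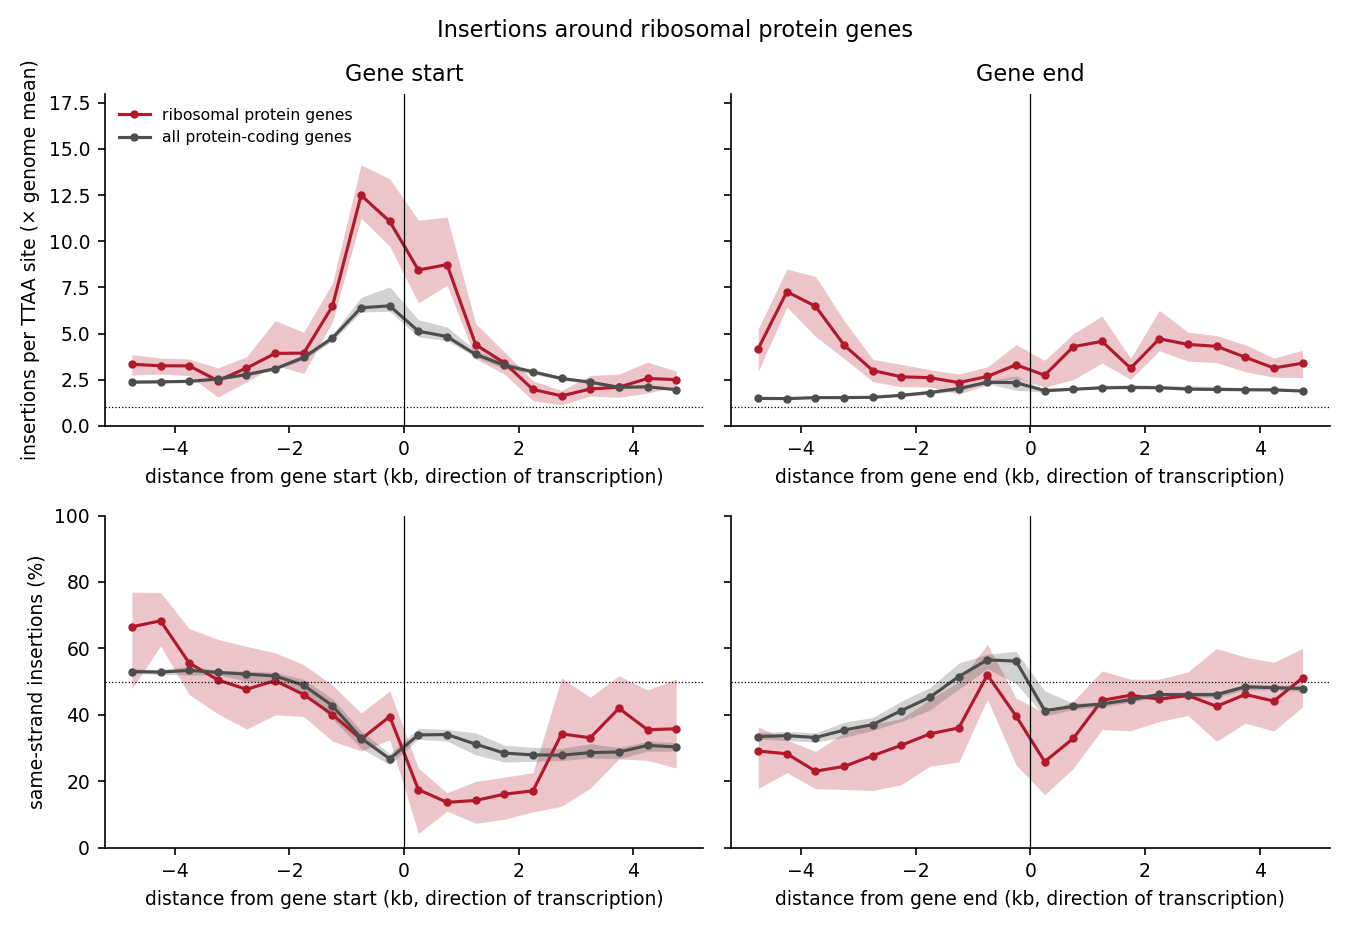
Insertion density relative to the genome mean (top) and share of insertions along the gene's strand (bottom) in 500 bp steps around the starts (left) and ends (right) of canonical transcripts, for ribosomal protein genes (red) and all protein-coding genes (grey); lines are the 20 libraries pooled and bands the lowest to highest library. Density peaked at 12.5 between 1000 and 500 bp upstream of the start, and the same-strand share was 13.7% from 500 to 1000 bp after it.

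The promoters themselves hold few places where piggyBac can insert. RefSeq promoter windows (250 bases before to 50 after the start, GRCh38.p14) matched 62 of the 77 genes and 15315 protein-coding genes in all. A TTAA was present in 23 (37.1%) of the 62 windows and in 39.4% of all windows. The 31 TTAA sites in the 62 windows carried 728 insertions, a density of 8.66, against 5.94 over all windows. Many ribosomal protein messages begin with a C and a run of pyrimidines, the terminal oligopyrimidine (TOP) motif through which growth signals control their translation. A C at the annotated start followed by 4 pyrimidines on the gene's strand was present in 42 (67.7%) of the 62 genes and in 4.66% of all genes. The letters TATAAA, searched on both strands over the 300 bases, were in 8.06% and 9.24% of the windows. A match describes the letters only.

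The windows of RPL36A and RPLP1 held the most insertions at a single promoter TTAA, 161 and 119, and their 250 bases upstream of the start are shown for that reason, on the gene's strand with the TTAA in capitals. RPL36A is a large-subunit protein, and RPLP1 belongs to the ribosomal stalk, which recruits translation factors.
RPL36A, chrX:101390761-101391010, plus strand: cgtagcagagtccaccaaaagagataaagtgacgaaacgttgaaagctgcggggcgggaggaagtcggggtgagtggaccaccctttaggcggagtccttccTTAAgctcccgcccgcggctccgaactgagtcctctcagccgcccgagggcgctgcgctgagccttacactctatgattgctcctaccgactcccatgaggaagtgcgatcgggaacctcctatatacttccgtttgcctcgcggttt
RPLP1, chr15:69452568-69452817, plus strand: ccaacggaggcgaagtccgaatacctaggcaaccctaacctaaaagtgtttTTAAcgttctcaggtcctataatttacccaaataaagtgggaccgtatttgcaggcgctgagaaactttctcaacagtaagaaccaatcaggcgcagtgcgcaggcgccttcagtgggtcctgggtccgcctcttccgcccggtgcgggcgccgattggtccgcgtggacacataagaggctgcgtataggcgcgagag

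The genes differed widely among themselves. Of the 75 with at least 5 TTAA sites in the body, 67 lay above the median of all genes (1.2) and 31 above their 90th percentile (3.68), and body density ran from 0.67 to 15.9. In 60 of the 75 the body was denser than the 1 Mb around it, against 7378 of the 18491 protein-coding genes with at least 5 sites. The median ratio of body to surroundings was 1.89, against 0.85 over all genes. The median body density was 3.51 for the large subunit and 2.82 for the small one. For the 28 genes that host a snoRNA (60 snoRNAs in all) it was 3.13, and 2.98 for the 47 others with at least 5 sites. Hosts made up 36.4% of the ribosomal protein genes and 1.28% of all protein-coding genes.

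At the dense end stood RPS28, a small-subunit protein, at 15.9 with 302 insertions on 7 sites. Per 1000000 insertions of the library it held 3.31 to 8.96 in the hyPBase libraries (median 5.53) and 3.95 to 8.91 with hyPBase-centrip (median 4.66). RPL13A, a large-subunit protein, had a density of 9.93, with 7.65 to 11.5 (8.58) and 6.77 to 10.6 (8.90) insertions per 1000000. In both genes the helpers overlapped. RPL41, the smallest ribosomal protein, had a density of 8.85, RPL27A 7.96, RPL10A 7.62, RPS26 7.28 and RPS2 7.19. The value of RPS26 rests on 1 site, shown above, which held 340 of its 454 insertions, and within its canonical transcript the density was 1.38. At RPS2 1 of the 8 sites held 64.1% of the 156 insertions. RPL27A also held the most insertions of any of the 77 genes, 2181, at 36.6 to 45.9 per 1000000 in every library. The densities of RPS21 (11.2) and RPS15 (9.95) rest on 4 and 2 sites and were not ranked.

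At the sparse end stood RPL26 at 0.67 (58 insertions on 32 sites) and RPL24 at 0.71 (88 on 46), both large-subunit proteins, and RPS27 at 0.86 (14 on 6). RPL26 held 0 to 2.75 insertions per 1000000 in the hyPBase libraries (median 0.65) and 0.36 to 2.23 with hyPBase-centrip (median 1.25), and the helpers overlapped. RPL7A (1.00), RPS7 (1.02), RPL37A (1.04), RPL9 (1.07) and RPS6 (1.12), whose protein is phosphorylated by the S6 kinases, completed the lowest 8. RPL37A is annotated over 80356 bp although its canonical transcript spans 5243 bp, and within that transcript its density was 2.32 (195 insertions on 31 sites), so its place here rests on the annotated body. In all, 18 of the 77 genes have an annotated body over 2 times as long as that transcript. A sparse body did not always mean a sparse locus. RPL24 had 8.57 in its upstream flank and 4.72 downstream, and RPS6 8.56 and 4.62. At RPL7A both flanks were sparse too, with 1.27 upstream and 0.84 downstream.

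**Figure D3:**
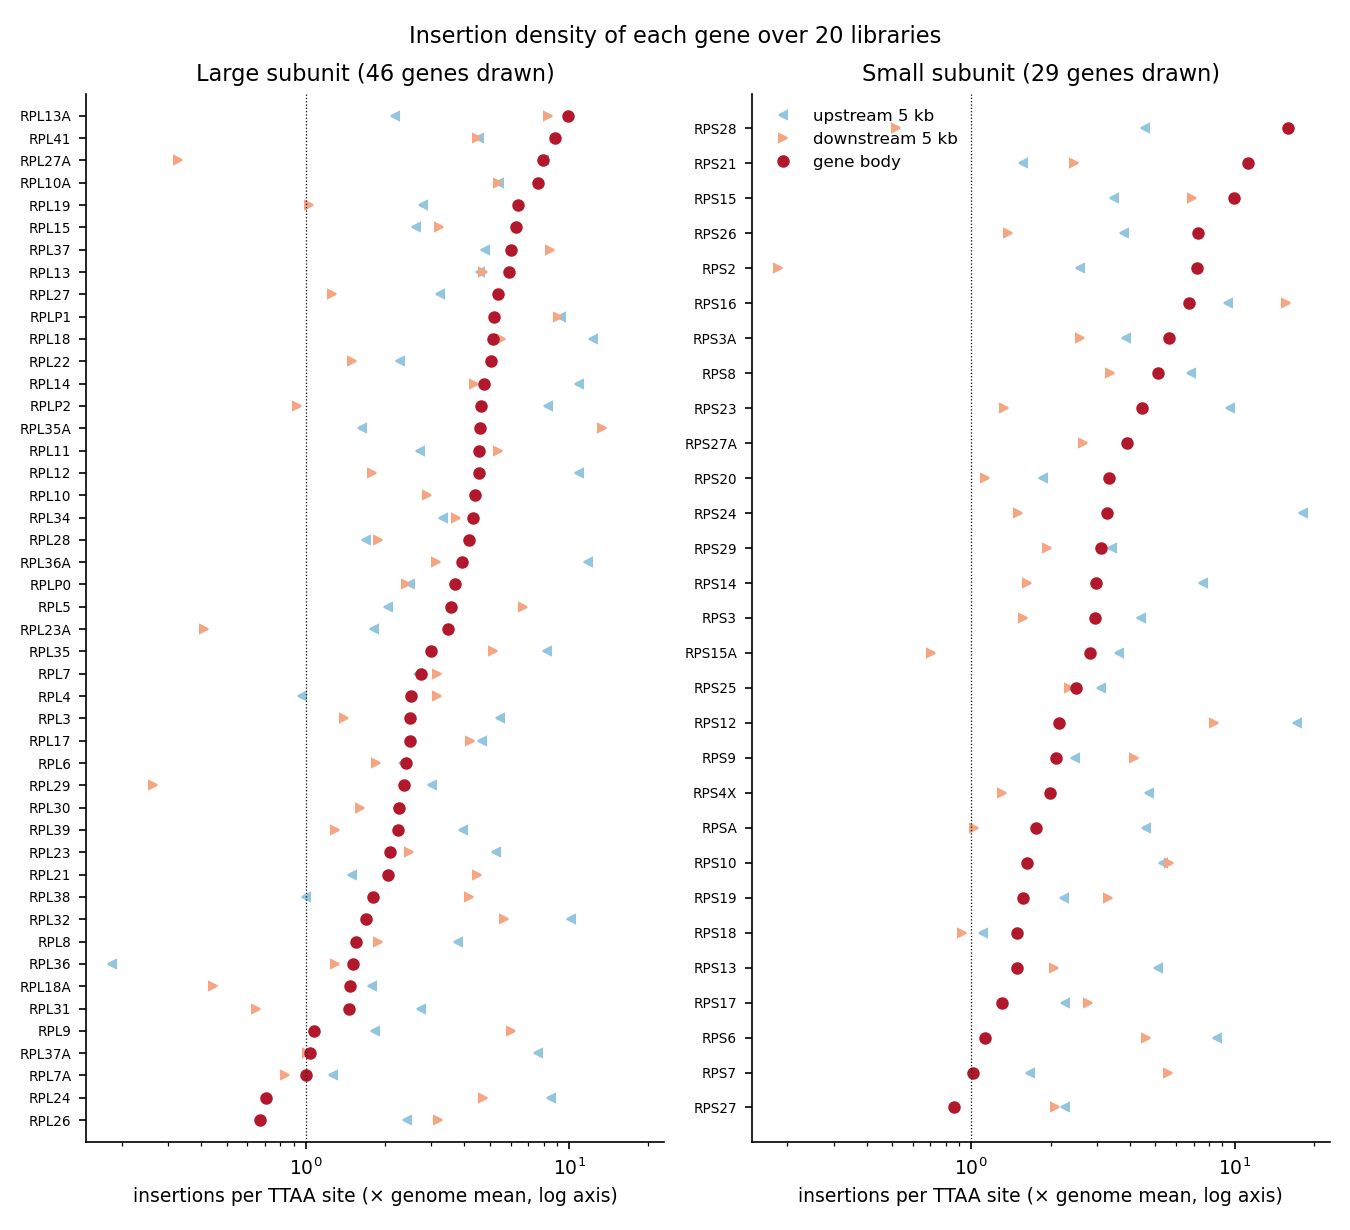
Insertion density over the 20 libraries, relative to the genome mean on a log axis, in the body (red circles) and the upstream and downstream 5 kb (blue and orange triangles) of 75 of the 77 ribosomal protein genes, ordered by body density within each subunit; RPL10 has no TTAA upstream. Body density ran from 0.67 at RPL26 to 15.9 at RPS28, and flanks could lie on either side of the body.

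The proteins of the stalk were all above the median of all genes. RPLP1 stood at 5.21, RPLP2 at 4.64 and RPLP0 at 3.69. RPSA, a small-subunit protein also known as the laminin receptor, stood at 1.76 over a body annotated to 19540 bp, and at 1.15 over its canonical transcript of 5823 bp, where the median of all genes was 1.13. The 18 genes on the list for Diamond-Blackfan anemia, a failure of red cell production caused by loss of 1 copy of a ribosomal protein gene, had a median of 3.18, with 15 of 18 above the median of all genes and a range from RPL26 to RPS28. Other lists had lower medians: 2.19 for the mitochondrial ribosomal proteins (73 genes with 5 sites), 1.69 for 34 translation factors, 1.46 for 36 proteasome subunits and 1.28 for 63 ribosome biogenesis factors. Among the cytosolic ribosomal proteins encoded as fusions or without an RP symbol, RACK1 had a density of 8.99 and FAU 1.57 on 4 sites. These medians are descriptions of lists that differ in gene length, and no list was tested.

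Whether the helpers differed at these genes was asked with edgeR's quasi-likelihood test on the insertions in the body and both flanks, over 18846 genes. Of the 77 ribosomal protein genes, 0 were higher with hyPBase-centrip and 1 was lower, against 0.557% and 1.45% of all genes, and 10 (13%) had an unadjusted p below 0.05, against 13.9% of all genes. DESeq2, whose own filter left an adjusted p for only 12 of the 77 genes, called 0 of these 12 and 225 of the 6423 genes with one. By DESeq2 5 of the 77 (6.49%) had an unadjusted p below 0.05, against 9.97% of all genes. The called gene was RPL41. Its locus held 9.86 to 14.0 insertions per 1000000 with hyPBase (median 11.7) and 6.39 to 11.4 with hyPBase-centrip (median 8.75). The groups overlapped, and the log2 difference was −0.43 ± 0.12 (SE, edgeR, Benjamini-Hochberg adjusted p = 0.0348). The direction held in all 11 alternatives that gave an adjusted p for RPL41, and the call in 6, with adjusted p from 0.0255 to 0.939. The difference was −0.22 when insertions of equal site and orientation were counted once whatever their barcode (edgeR, adjusted p = 0.939), −0.39 with every other library (0.364) and −0.22 with flanks of 10 kb, where the call was kept (0.0367). It was larger, but not called, at −0.48 with at least 2 reads per insertion (edgeR, adjusted p = 0.113) and −0.61 in the body alone (0.0983). Without sites that have a repeated 36-mer it was −0.38 and not called (0.0935).

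Insertions in ribosomal protein genes lay mostly against the direction of transcription. In the parts of the bodies covered by genes of 1 strand only, 26.0% to 30.7% of the insertions of a library were oriented along the gene (median 28.0%), below the share over all genes, 31.9% to 34.3%, in 20 of 20 libraries. In the 2500 bp after the start of the canonical transcript, with no regard to overlapping genes, the share was 12.9% to 16.9%, against 28.6% to 33.3%. It stood at 17.5%, 13.7%, 14.3%, 16.1% and 17.2% in the 5 steps of 500 bp after the start, and at 34.3% in the next. Upstream of the start the share was 39.5% in the nearest 500 bp, against 26.8% over all genes, and 32.7% from 1000 to 500 bp away, against 33.0%. Farther off it was 68.3% from 4500 to 4000 bp and 66.5% from 5000 to 4500 bp, against 52.9% and 53.1%.

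Gene by gene, 67 of the 77 had the 50 insertions that the test required, and 4 (RPL32, RPS4X, RPL15 and RPL35A) had no part covered by genes of 1 strand only. Fewer same-strand than opposite-strand insertions were called in 60 of the 67 (89.6%) by edgeR with library as a block, and more in 3 (4.48%), against 79% and 7.62% of all genes. The median log2 ratio was −1.91, against −1.06 over all 15488 genes tested. The medians of other lists were −2.63 for the ribosome biogenesis factors, −2.56 for the translation factors, −2.22 for the proteasome subunits and −1.84 for the mitochondrial ribosomal proteins. These medians were not tested against each other.

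RPLP2 had the lowest ratio, with 0 insertions along the gene and 63 against it, at least 21-fold fewer when 3 insertions over the 20 libraries are taken as the floor. RPL39, a large-subunit protein, had 3 along and 125 against (log2 −4.53 ± 0.40, SE; edgeR, adjusted p = 2.54e-29). RPL5 had 28 and 496 (−4.03 ± 0.18), RPL19 14 and 229 (−3.81 ± 0.26) and RPS23, a protein of the decoding site, 9 and 148 (−3.71 ± 0.32). The 3 genes with more insertions along the gene were RPS21 with 105 along and 17 against (2.46 ± 0.31; adjusted p = 9.95e-15), RPS28 with 47 and 9 (2.11 ± 0.43) and RPL41 with 116 and 76 (0.59 ± 0.22; adjusted p = 0.00727). Single sites held many insertions of some of these bodies. In RPL5 the sites at 92832677 and 92832272 held 230 and 174 insertions against the gene. In RPS21 the coding sites at 62387865 and 62387877 held 37 and 26 along it. Counting insertions of equal site and orientation once made several ratios smaller, to −1.66 at RPL5, −2.68 at RPL19, −2.91 at RPS23 and 1.86 at RPS21, all still called. For RPL41 the call was lost with hyPBase libraries alone (edgeR, adjusted p = 0.162) and with barcodes collapsed (0.313). With at least 2 reads per insertion the ratio was larger at RPL41, 1.19 (edgeR, adjusted p = 9.07e-05), and smaller at RPL39, −3.94, both still called. These 3 genes, RPS21, RPS28 and RPL41, are very short, at 1418, 2183 and 1378 bp, but other short genes went the other way. RPS15 (2138 bp) had 3 along and 51 against and RPL10A (2385 bp) 25 and 99, both called. At RPS28 only 56 of 302 insertions lay in a part covered by genes of 1 strand. The remaining 4 tested genes were RPSA, with 239 along and 272 against, RPS27A, whose product is fused to ubiquitin, with 167 and 151, RPL28 with 225 and 233, and RPL27A with 629 and 603.

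**Figure D4:**
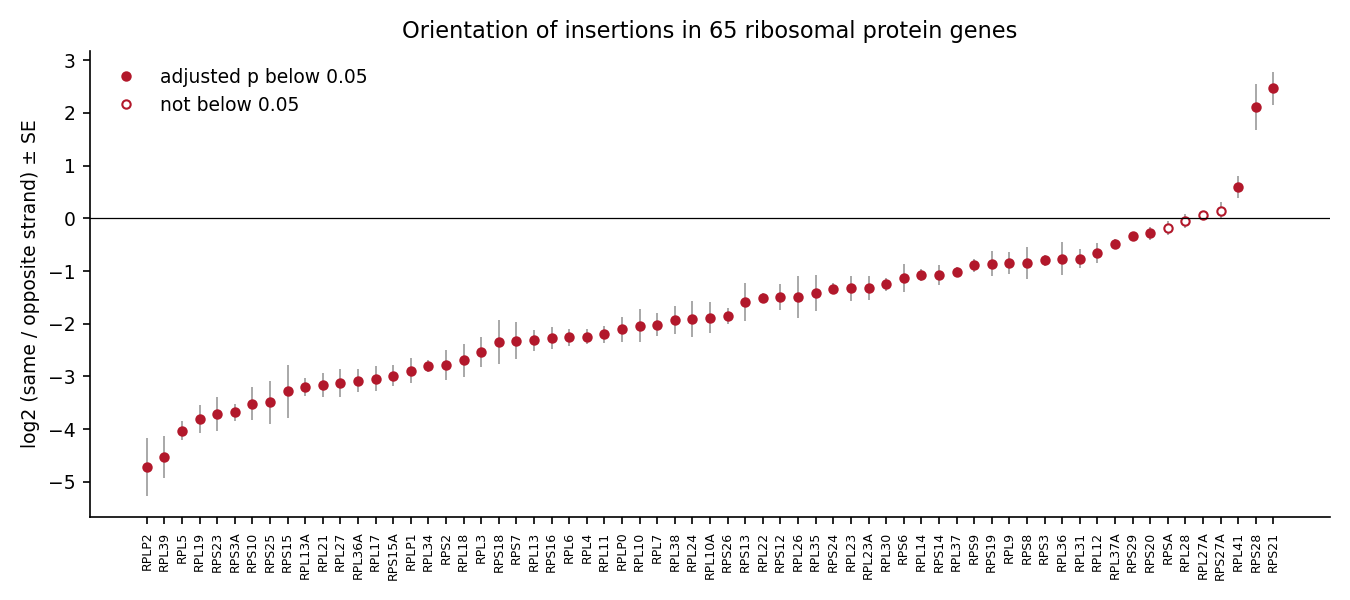
Log2 ratio of same-strand to opposite-strand insertions for 65 of the 67 ribosomal protein genes tested, with a standard error derived from the F statistic of edgeR's test over 20 libraries; filled circles have an adjusted p below 0.05. The ratio was called below 0 in 60 of the 67 genes tested and above 0 in RPS21, RPS28 and RPL41.

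Against its own flanks, the body was called denser in 25 of 76 genes (32.9%) and sparser in 33 (43.4%) by edgeR, against 22.8% and 55.7% of all genes. The median log2 difference was −0.06, and −0.49 over all 18196 genes. Bodies well above their flanks were those of RPS21 (2.43 ± 0.19, SE), RPS28 (2.32 ± 0.13), RPL36 (1.89 ± 0.36) and RPS2 (1.86 ± 0.24). RPS2, whose protein lies at the message entry channel, had 7.19 in the body, 2.58 upstream and 0.18 downstream. Its downstream value rests on 1 insertion at 2 sites, and 1 of its 8 body sites held 64.1% of the 156 body insertions. The value for RPL36 turned to −0.90 when body and flanks were both taken from the canonical transcript, which spans 1581 bp of the 16929 bp annotated and whose body held 15 insertions on 5 sites. Bodies well below their flanks were those of RPL24 (−3.11 ± 0.13), RPS12 (−2.65 ± 0.09), RPS6 (−2.49 ± 0.10), RPL32 (−2.15 ± 0.12) and RPL26 (−1.99 ± 0.20). RPS12 had 17.3 upstream, on 1504 insertions at 32 sites, 2.15 in the body and 8.37 downstream. The balance of calls depended on the width of the flanks, with 31 of 76 genes denser and 30 sparser with flanks of 10 kb, and 17 of 74 denser and 38 sparser with flanks of 2 kb. Over all genes 25.1% were denser and 55.6% sparser with 10 kb, and 21.4% and 53.0% with 2 kb. With barcodes collapsed 21 of 76 were denser and 23 sparser, against 17.6% and 54.1% of all genes. Collapsing moved the difference to 0.70 at RPS2, 1.82 at RPS21, −1.52 at RPS12, −1.48 at RPL32, −1.80 at RPS6 and −2.31 at RPL24. Flanks of 10 kb gave 0.54 at RPL36, 2.70 at RPS2, −2.26 at RPL24, −1.76 at RPS12 and −1.45 at RPL32. Flanks of 2 kb gave 0.86 at RPS28, −3.02 at RPL26 and −3.25 at RPS12. Each of these values was still called in the same direction.

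Between the flanks, the upstream one was called denser in 39 of 74 genes (52.7%) and sparser in 16 (21.6%), against 51.2% and 27.2% of all genes, so the shares were close to the background. RPL27A had 8.06 upstream on 503 insertions and 0.33 downstream on 8 (log2 4.40 ± 0.27, SE). RPS24, a small-subunit protein on the Diamond-Blackfan list, had 18.3 upstream and 1.5 downstream (3.56 ± 0.13), RPL29 3.01 and 0.26 (3.12 ± 0.43), RPS28 4.59 and 0.52 (3.00 ± 0.28) and RPLP2 8.29 and 0.92 (2.97 ± 0.30). The opposite order was largest at RPL35A, with 1.63 upstream on 137 insertions and 13.3 downstream on 832 (−3.01 ± 0.11), followed by RPL38 (−1.98 ± 0.28), RPL13A (−1.90 ± 0.17), RPS7 (−1.74 ± 0.12) and RPL9 (−1.70 ± 0.11). With barcodes collapsed the differences were 3.24 at RPL27A, 1.82 at RPS24, 1.59 at RPS28, 2.03 at RPLP2, −1.98 at RPL35A and −1.0 at RPL13A, all still called. Flanks often held other genes. A part of the upstream flank lay in another protein-coding gene for 40 of the 77 genes (51.9%) and of the downstream flank for 44 (57.1%), against 36.7% and 41.1% of all genes. With flank sites in other genes left out, 34 genes could be tested, 21 with the upstream flank denser (61.8%) and 8 with it sparser (23.5%), against 48.9% and 26.5% of all genes.

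The order of coding exons and introns differed with the sites that were counted. At all sites the coding density was 2.42 and the intron density 3.23 for the ribosomal protein genes, and coding exons were the denser of the pair in 2 of 20 libraries. By edgeR, coding exons were sparser in 27 of 47 genes (57.4%) and denser in 7 (14.9%), against 26.9% and 19.9% of all genes. The median log2 difference was −1.89, or −1.04 with the 14 genes without a coding insertion set at the floor of 3 insertions, and −0.33 over all genes, or −0.12 with such genes at the floor.

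An insertion is read from 1 side of its TTAA. Over the whole genome, sites whose flanks of 36 bases both occur once held 1.47 insertions in plus orientation and 1.48 in minus. Where the bases after the TTAA occur more than once, plus insertions fell to 0.0839 per site and minus insertions were at 1.03, and where the bases before it are repeated the figures were 1.03 and 0.0872. A side of a TTAA is therefore called readable here if its 36 bases occur once in hg38. In all protein-coding genes 94.9% of coding-exon sides were readable and 95.4% of intron sides. In the ribosomal protein genes 98.5% of intron sides were readable, but only 86 of 188 coding-exon sides (45.7%).

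Counted over readable sides, a measure chosen after the data had been seen, the density of coding exons was 4.28 and that of introns 3.03, and coding exons were the denser in 18 of 20 libraries. For all genes the values were 1.51 and 1.12. The coding density ran from 2.19 to 5.64 over the libraries and the intron density from 2.73 to 3.61. With sites that have a repeated 36-mer on either side left out, 17 genes could be tested, 7 with coding exons denser (41.2%) and 6 with them sparser (35.3%), against 19.4% and 26.9% of all genes. The median log2 difference was 0.14. Few sites lie in coding exons: the 77 genes have 94 there and 1570 in introns.

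The 94 coding-exon TTAA sites of 53 genes were also examined one by one. All 23 with both sides readable were hit, with 396 of the 618 coding insertions. Of the 31 with neither side readable, 2 were hit, with 6 insertions. The 41 sites without an insertion included 0 with both sides readable. Of the 4 coding sites with the most insertions 3 are shown, with 3 sites without any for comparison, each with 30 bases on the gene's strand and the TTAA in capitals.
RPLP1, chr15:69453669-69453672, 63 insertions: atcaatgccctcaTTAAagcagccggtgta
RPL35A, chr3:197951230-197951233, 48 insertions: cacacagctcttcTTAAaattgaaggtgtt
RPS21, chr20:62387865-62387868, 40 insertions: gtcacaggcaggtTTAAtggccagtttaaa
RPL10A, chr6:35470250-35470253, 0 insertions: cctcggcccaggtTTAAataaggcaggaaa
RPL10A, chr6:35470747-35470750, 0 insertions: cccagcgcctataTTAAggcacatttgaat
RPL15, chr3:23918533-23918536, 0 insertions: gtccatcatggtgTTAAccagctaaagttt

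The RPLP1 site was hit in all 20 libraries, with 1 to 6 insertions each, and 60 of its 63 insertions were against the gene. At the RPS21 site 37 of 40 were along it, and another RPS21 coding site, at 62387877, also held 40, of which 26 were along the gene. The RPLP1 site and both RPS21 sites have flanks that occur once. At the RPL35A site the bases before the TTAA, from which insertions against the gene are read, occur 2 times, yet 44 of its 48 insertions had that orientation. The RPL15 site and the RPL10A site at 35470250 have repeated bases on both sides, with 3 and 4 copies for RPL15 and 4 and 2 for RPL10A. At the RPL10A site at 35470747 the bases after the TTAA occur once and those before it 3 times.

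Among single genes, RPL24 had 24 insertions at its 1 coding site, a density of 8.85, and 0.54 in its introns (log2 3.94 ± 0.44, SE; edgeR, adjusted p = 4.03e-10), RPLP1 23.2 and 4.36 (2.38 ± 0.22), RPS18 6.64 and 1.24 (2.31 ± 0.44) and RPS4X 6.27 and 2.57 (1.27 ± 0.28). Of the 7 genes called denser in coding exons, 6 remained so with repeated sites left out. The exception, RPL35A, turned from 0.96 to −2.62. The 5 genes with the lowest fitted ratios, RPL22, RPS3A, RPL7, RPS23 and RPS10, had 0 coding insertions and 0 readable coding sides, so nothing can be read from them. Of the 27 genes called sparser, 11 had no readable coding side and 12 no coding insertion, and 5 of the 6 that could still be tested with repeated sites left out remained sparser. The exception, RPL5, turned from −0.56 (edgeR, adjusted p = 0.029) to 0.86, called denser (0.0489). RPL11 and RPL27 were among the 5, each with 2 insertions at a coding site readable on both sides and intron densities of 4.57 and 6.17. The intron density of RPL27 rests mostly on 1 site, shown above, which held 165 of its 201 intron insertions.

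**Figure D5:**
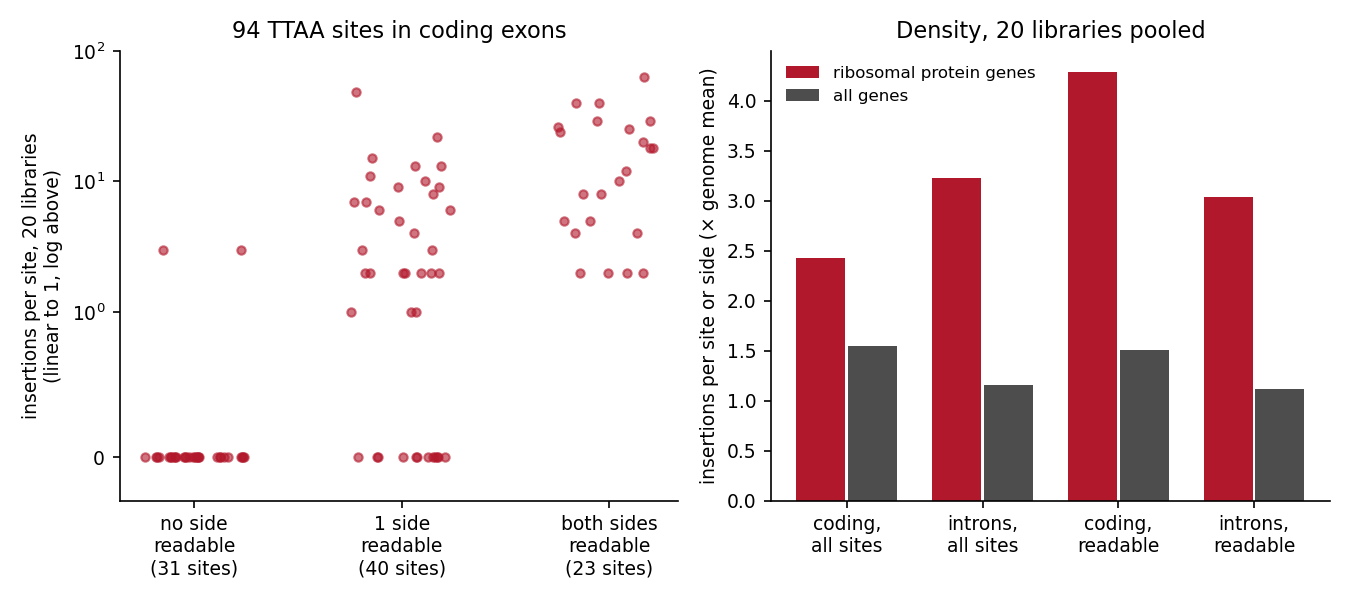
Left, insertions over 20 libraries at each of the 94 coding-exon TTAA sites of ribosomal protein genes (linear to 1, log above), by how many of their sides are readable; right, pooled density in coding exons and introns relative to the genome mean over all sites and over readable sides, for ribosomal protein genes (red) and all genes (grey). All 23 sites with both sides readable were hit, and the coding density was 2.42 over all sites and 4.28 over readable sides.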

How the data were processed

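The authors deposited, for each library, a list of insertions that gives the hg38 position, read count, orientation and barcode of each. The deposited read counts are raw, and every line was taken as 1 insertion whatever its count. The submitters' processing notes name Trimmomatic, BWA and SAMtools without versions. For 2 libraries the title and description name different helpers, and they were left out. Read depth was 179771975 reads in all, and the ranges and p-values cover the spread between libraries only.

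TTAA sites were found in hg38. Genes, flanks of 5 kb and canonical transcripts came from GENCODE version 44, and promoter sequences from RefSeq. Insertions were counted per gene, region, orientation and library in Python 3.11.15 with numpy 2.4.6 and pandas 2.3.3. The 5 comparisons were fitted over all protein-coding genes with at least 50 insertions by edgeR 4.0.16 in R 4.3.3 (quasi-likelihood, Benjamini-Hochberg adjusted p below 0.05). TMM was used for the helpers, and library as a block over 40 columns for the others. TTAA sites were an offset in these others, except in the comparison of strands. Bodies, flanks and introns needed at least 3 TTAA sites where sites were an offset, and coding exons at least a single one. The standard errors given with edgeR values were derived, as the absolute log2 difference divided by the square root of the test's F statistic. DESeq2 1.42.0 was an alternative. The fits were tested on simulated counts. Figures were drawn with matplotlib 3.10.9.

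The genes, the gene lists (Diamond-Blackfan, stalk and laminin receptor, fusion proteins and RACK1, mitochondrial ribosomal proteins, proteasome, translation factors, ribosome biogenesis, erythroid, lymphoid and myeloid genes) and the tests were chosen with earlier results of these data known. Named genes were the 8 densest and 8 sparsest with at least 5 sites, up to 5 called genes with the largest difference in each direction of each comparison, RPLP0, RPLP1, RPLP2 and RPSA. RPL35A, RPL5, RPL11 and RPL27 among the coding-exon calls, and RPL36A and the other genes named for a promoter or a strand that was not called, were chosen after their values were seen. So were RPS15 and RPL10A among the strand calls. Alternatives covered reads per insertion, barcodes, libraries, repeated 36-mers, minimum counts, flanks and the gene model. Some genes that this rule selects are not reported here, although counts and sums include them.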

Additional observations from a re-analysis of the deposited data

Results flagged for a closer look

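Each value was compared within the 10 libraries of a helper, over 52 groups of values, and 3 had a highest or lowest library set apart from the rest by Dixon's criterion, which chance alone gives in about 1 of 20 groups. The pooled downstream flank density of the ribosomal protein genes was 4.17 in hyPBase-centrip replicate 3, with the next library at 3.67, and the median over libraries was 3.58 with that library and 3.57 without it. The same library was also the highest over all protein-coding genes, at 2.07 in the downstream flank (next of its helper 1.99) and 3.51 in the upstream one. It held the fewest insertions of the hyPBase-centrip libraries, 1638175. RPL26 held 2.75 insertions per 1000000 in the body in hyPBase replicate 7, with the next at 1.46. RPS6 held 4.64 in hyPBase replicate 9, with the next at 2.91.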

How the results depend on the processing

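The comparison with all genes kept its direction for body, upstream flank, downstream flank and introns in 20 of 20 libraries, and for coding exons in 17 to 20, under the 6 alternatives for which all genes were recomputed (reads, barcodes, sites hit, repeated 36-mers, readable sides and the 1 Mb around). Median densities of the ribosomal protein genes moved by more than 1 SD over the 20 libraries (0.13 in the body, 0.19 upstream, 0.17 downstream, 0.44 in coding exons and 0.24 in introns) as follows, some of them within the range of the libraries. Requiring at least 2 reads per insertion gave 3.13 in the body, 5.15 upstream and 3.76 downstream. Collapsing barcodes gave 2.63, 3.45 and 3.24, and 2.70 in introns. The share of sites hit gave 2.59, 3.14 and 3.03, and 2.73 in introns. The wider member rule gave 3.34 in the body, 3.76 downstream and 3.74 in introns, and the canonical transcript 3.38 in the body. Relative to the surrounding 1 Mb the values were 1.67, 2.66 and 1.99, 1.29 in coding exons and 1.80 in introns. Leaving out repeated 36-mers gave 5.54 in coding exons, and readable sides, added after the data were seen, gave 4.19.

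For the helpers, 0 genes were lower with at least 2 reads, barcodes collapsed, odd-numbered replicates, repeated 36-mers left out or the body alone, against 0.816%, 0.0749%, 0.303%, 1.32% and 1.07% of all genes, and 2 with 10 kb flanks, against 1.56%. DESeq2 called 0 of the 12 genes to which it gave an adjusted p, RPL41 not among them. Same-strand excess was called in 1 gene with barcodes collapsed or hyPBase alone and in 0 of 37 with a minimum of 200, where 33 had the opposite excess and RPS21, RPS28 and RPL41, with 122, 56 and 192 insertions, could not be tested. Over all genes the same-strand share of calls was 4.35%, 5% and 5.33% in that order, and the opposite one 85.2% with a minimum of 200. Coding exons were denser in 4 genes with odd-numbered replicates (36 tested) or either helper alone and in 3 with a minimum of 200, against 15.6%, 14.2% (hyPBase), 16.2% (hyPBase-centrip) and 20.2% of all genes. They were sparser in 6 of 17 genes tested without repeated 36-mers, 10 of 17 with a minimum of 200, 18 of 36 with odd-numbered replicates, 14 of 34 with hyPBase alone and 17 of 40 with hyPBase-centrip alone, against 27 of 47. Over all genes the sparser share was, in the same order, 26.9%, 28.5%, 17.4%, 16.1% and 18%, against 26.9%. Without flank sites in other genes the upstream flank was denser in 21 and sparser in 8 of 34. RPL36 turned to −0.90 in body against flanks with body and flanks of the canonical transcript. Where no value shows the cause, the cause was not tested. Of 357 values for named genes under alternatives, 344 kept direction and call, though not size. With barcodes collapsed, 7 of 10 differences of body and flanks, 6 of 10 between flanks, 4 of 6 strand ratios and 4 of 10 of coding exons and introns (RPL22, RPS3A, RPS23 and RPS10, which have no coding insertion) moved by over 1.5-fold, all toward 0.

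Libraries with the same number in both helpers share only a number. Over 5091 genes the correlation of their deviations was −0.13 to 0.11 (median 0.00046), and 2 of 10 hyPBase libraries correlated best with their own number. With the replicate block, 1 ribosomal protein gene was lower and 0 higher, as without it, and 366 genes of all were called against 378.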
